A study of Bos taurus with 12 samples.

Results

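Cadherins and protocadherins are calcium-dependent adhesion proteins of the cell surface. Classical cadherins join neighbouring cells and are tied to the actin skeleton through catenins, whereas protocadherins lack that link and are best known from the nervous system. Methylation of CpG cytosines is a chemical mark on DNA that can accompany gene silencing when it lies at a gene's start, and most CpGs away from gene starts are methylated in mammalian cells.

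The genes described here are those whose symbol in the deposited tables begins with CDH and a digit or with PCDH. They comprised 25 genes with 803 of the 196275 listed CpG cytosines (sites), and 3 of these genes held 13 of the 1227 listed windows of 500 bases (tiles). The names table used here, of the assembly ARS-UCD2.0, held 24 of the 25 symbols, the exception being PCDH11X. It also named 17 such genes with no site in the tables used here, among them CDH1 and CDH2, the epithelial and neural classical cadherins. Since 49913 of the listed sites carry no gene symbol and could not be assigned by it, this does not show that these genes had no listed site. A site or tile belongs to the gene whose transcription start the authors' annotation gave as nearest, so it need not lie in that gene. Of the 803 sites, 273 lay within the gene model and 530 outside it.

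MSG cows (mastitis susceptible group, n = 6) were culled within a year of the blood sample for complications of mastitis that had not been identified when blood was drawn. MRG cows (mastitis resilient group, n = 6) were still in the herd after that year and had a similar age distribution. All 12 dairy cows were raised on the same farm, each gave 1 whole-blood sample, and the labels gave no genotype beyond these group names, no treatment and no age in years. Methylation was read by enzymatic conversion, in which unmodified cytosines end as thymines, and is given as percent methylation per cow.

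Both tables list only rows that the authors had already selected for a difference between these same cows, of at least 25 percentage points by their own estimate. The plain difference between the groups' means over cows, used below, went down to 16.6 points at the family's sites. The tests below were run again on the same cows and are not independent evidence. Where a cow carries a thymine in its DNA, the assay reads an unmethylated cytosine. At 672 of the 803 sites (83.7%, against 78.3% of all listed sites) at least 1 cow stood at exactly 0. The part of sequence variants in the differences was not tested.

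Listed sites of the family were split almost evenly between the directions, and most of them belonged to a pair of protocadherins. In MSG, 412 sites were higher and 391 lower, a share of 51.3% higher, while 52.7% of all listed sites were higher. PCDH15 held 387 sites (48.2% of the family's) and PCDH17 held 146, and together they made up 66.4%. PCDH15 ranked 2 among all 11830 named genes by number of sites and 2 among the 479 genes with a tile. The median named gene had 4 sites. Without PCDH15 the share higher in MSG was 48.6%, and without PCDH15 and PCDH17 it was 43.3%.

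**Figure D1:**
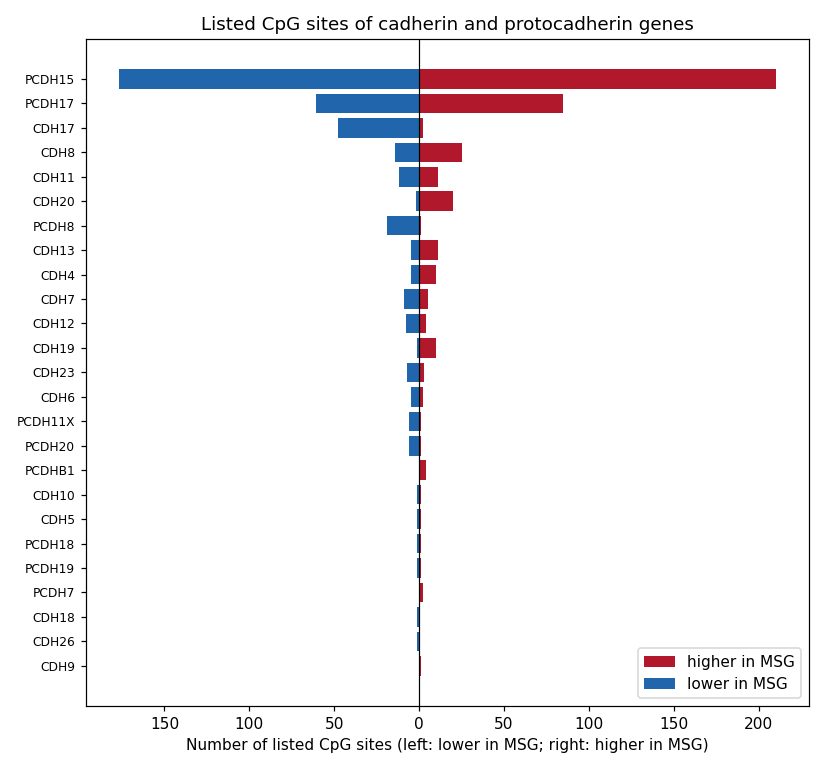
Number of listed CpG sites per gene (horizontal axis), split into sites lower in MSG (bars to the left) and higher in MSG (bars to the right), for the 25 cadherin and protocadherin genes. PCDH15 (210 higher, 177 lower) and PCDH17 (85 higher, 61 lower) exceed all others, while CDH17 (2 higher, 48 lower), PCDH8 (1 higher, 19 lower) and CDH20 (20 higher, 2 lower) lie almost wholly on one side.

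By class, the directions differed from group to group, and outside the type II cadherins 1 gene supplied most of each class. The 11 type II cadherin genes held 134 sites, 80 higher and 54 lower in MSG. The 4 atypical cadherin genes held 77 sites, 16 higher and 61 lower, of which CDH17 gave 48 of the lower ones. CDH4 was the sole type I gene with sites, 10 higher and 5 lower. The 4 delta-2 protocadherin genes held 170 sites, 88 higher and 82 lower, and the 2 delta-1 genes, PCDH7 and PCDH11X, held 9, 3 higher and 6 lower. PCDH15 and PCDH20, the other non-clustered protocadherins, held 394 sites, 211 higher and 183 lower. From the clustered protocadherins, PCDHB1 was the sole symbol with sites, and all 4 were higher in MSG. Counted per gene, 10 genes had more higher sites, 11 had more lower sites and 4 were tied.

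PCDH15 encodes protocadherin-15, which forms the tip links of inner-ear hair cells together with cadherin-23. Its gene model spans 912 kb (chromosome 26, 4657603 to 5569857, ARS-UCD1.2, forward strand). Listed sites began 887 kb before the first annotated start and ended 491 kb after it, so 192 sites lay in the model and 195 before it. Higher sites in MSG numbered 118 of the 192 in the model and 92 of the 195 before it. Over the 210 higher sites the means of the cows were 53.4% ± 16.8 for MSG and 18.8% ± 7.89 for MRG (± is the SD over 6 cows per group). Over the 177 lower sites they were 30.1% ± 13.9 in MSG and 68.6% ± 11.02 in MRG. These means rest on sites sorted by direction and serve as levels only. At 338 of the 387 sites (87.3%) a cow stood at exactly 0.

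The balance of directions varied along the gene, and most segments of 100 kb were mixed. In the 100 kb before the start, 14 of 49 sites were higher in MSG and 35 were lower, with a median difference of -45.0 points. From 100 to 200 kb after the start, 74 of 76 sites were higher in MSG, with a median difference of 32.7 points. Beyond 400 kb, 1 of 27 sites was higher and 26 were lower, with a median of -34.1 points. These were the most one-sided of the segments with over 20 sites. Sites higher and lower in MSG numbered 16 and 21 in the first 100 kb after the start, and 25 and 20 from 300 to 400 kb. Before the start they numbered 11 and 6 from 200 to 100 kb, 19 and 8 from 300 to 200 kb, 9 and 16 from 400 to 300 kb, and 29 and 19 from 500 to 400 kb. From 900 to 800 kb before it 3 were higher and 12 lower, and the remaining segments held 8 sites or fewer each.

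**Figure D2:**
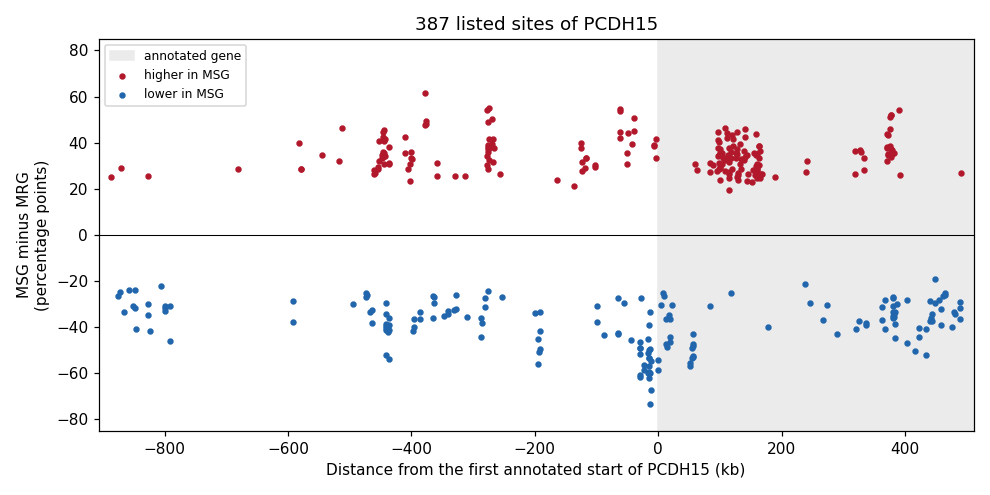
MSG minus MRG difference in percent methylation (vertical axis, percentage points) of the 387 listed sites of PCDH15 by distance from the first annotated start (horizontal axis, kb; the grey band is the annotated gene as far as sites reach). Each point is 1 site. Small differences are missing because the authors listed none under 25 points by their own estimate, and the 76 sites from 100 to 200 kb are nearly all above the line.

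All 11 PCDH15 tiles passed limma's test at an adjusted p under 0.05, 5 higher and 6 lower in MSG, where 73.3% of all listed tiles passed. In none of the 11 were the groups' cows fully apart. Of all 13 tiles of the family 7 were higher in MSG, against 56.2% of all listed tiles. The tiles starting at 4642751 and 4643001, at 4712751 and 4713001, and at 4820001 and 4820251 overlap in pairs and are not separate loci. Upstream of the gene, the tile 30.1 kb before the start (chromosome 26, 4627251 to 4627750) stood at 20.5, 55.0, 27.0, 50.9, 68.8 and 23.3% in the MSG cows and at 76.8, 84.4, 87.1, 54.7, 90.4 and 75.4% in the MRG cows. MSG replicates 2 and 5 lay above MRG replicate 4, and the groups were otherwise apart. Its means were 40.9% ± 19.98 in MSG and 78.1% ± 12.9 in MRG, a difference of -37.2 points (limma adjusted p = 0.0347). At 14.6 kb before the start (4642751 to 4643250) the MSG cows averaged 57.7% ± 12.2 and the MRG cows 82.7% ± 9.13 (adjusted p = 0.0347), and the overlapping tile 4643001 to 4643500 averaged 47.5% ± 19.4 over 5 MSG cows and 82.8% ± 12.2 over the MRG cows. Methylation was thus lower in MSG in the 3 tiles nearest upstream of the gene, with MSG replicates 1, 3 and 6 the lowest where measured. The call of the tile 4642751 was lost without MSG replicate 1, 3 or 6 (adjusted p = 0.0526, 0.0554 and 0.0529) or MRG replicate 5 (0.0510).

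Farther upstream the tiles went both ways. The tile 441 kb before the start (4216001 to 4216500) stood at 45.3, 46.2, 9.15, 80.7, 63.7 and 37.1% in MSG and at 76.9, 84.5, 86.3, 54.3, 86.2 and 71.6% in MRG. Its difference was -29.6 points (limma adjusted p = 0.0361), and MSG replicate 4 stood above MRG replicates 1, 4 and 6, and MSG replicate 5 above MRG replicate 4. The call was lost without MSG replicate 1, 2, 3 or 6 (adjusted p = 0.0509, 0.0518, 0.0706 and 0.0568), without MRG replicate 1, 2, 3 or 5 (0.0522, 0.0579, 0.0521 and 0.0575) and by the exact permutation test (0.0601). The tile 276 kb before the start (4381251 to 4381750) was higher in MSG, at 80.8, 50.6, 71.2, 44.4, 74.4 and 76.4%, against 47.0, 45.6, 14.7, 66.7 and 10.8% in the 5 MRG cows with a value. That difference was 29.4 points (adjusted p = 0.0381), again with overlapping cows. It was lost without MSG replicate 1, 3, 5 or 6 (adjusted p = 0.0647, 0.05997, 0.0529 and 0.0636), without MRG replicate 1, 2, 3, 5 or 6 (0.0517, 0.0536, 0.0786, 0.0511 and 0.0823), on the logit scale (0.0519) and by the exact permutation test (0.0650).

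In the first intron, tiles pointed in opposite directions. The tile 55.4 kb after the start (4712751 to 4713250) was at 0 in 5 MSG cows and at 47.6% in MSG replicate 4, against 89.5, 95.8, 34.6, 0, 90.5 and 40% in MRG. MRG replicate 4 was thus at 0 with most MSG cows, and MSG replicate 4 among the MRG cows. It had the widest difference of the family's tiles, -50.5 points (limma adjusted p = 0.0347). The overlapping tile 4713001 to 4713500 averaged 27.4% ± 16.3 over the MSG cows and 64.3% ± 32.7 over the MRG cows. At 115 kb after the start (4772001 to 4772500) the direction was the other one, with 47.4, 50.7, 61.3, 0, 35.4 and 22.8% in MSG and 4.05, 25, 0, 14.3, 0 and 0% in MRG, a difference of 29.0 points (adjusted p = 0.0350). MSG replicates 4 and 6 lay within the MRG range there. The tile 163 kb after the start (4820251 to 4820750) stood at 55.9, 63.9, 48.4, 0 and 71.0% in the 5 MSG cows with a value and at 11.5, 4.17, 9.68, 4.92, 0 and 0% in MRG. Every MRG cow was thus below 12%, and MSG replicate 4 was the sole MSG cow among them; the difference was 42.8 points (adjusted p = 0.0347). Its overlapping neighbour 4820001 to 4820500 differed by 37.7 points. Without 1 cow the call of tile 4713001 was lost for MSG replicate 1, 3 or 6 (adjusted p = 0.0509, 0.0533 and 0.0506) and MRG replicate 1, 2 or 5 (0.0553, 0.0614 and 0.0586). That of tile 4772001 was lost for MSG replicate 1, 2 or 3 (0.0524, 0.0552 and 0.0605) and MRG replicate 1 or 5 (0.0517 and 0.0533). By the exact permutation test none of the 5 tiles in this intron passed (adjusted p = 0.0524 to 0.0720).

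Farther into the gene, in intron 4, the tile 378 kb after the start (5035001 to 5035500) stood at 82.8, 88.9, 89.7, 87.7, 89.8 and 66.5% in MSG and at 26.8, 57.0, 53.4, 68.6, 83.5 and 53.5% in MRG. The difference was 27.1 points (limma adjusted p = 0.0350), and MSG replicate 1 lay below MRG replicate 5 and MSG replicate 6 below MRG replicates 4 and 5. The call was lost without MSG replicate 2 or 3 (adjusted p = 0.0518 and 0.0535), without MRG replicate 1 (0.0613) and by the exact permutation test (0.0507).

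**Figure D3:**
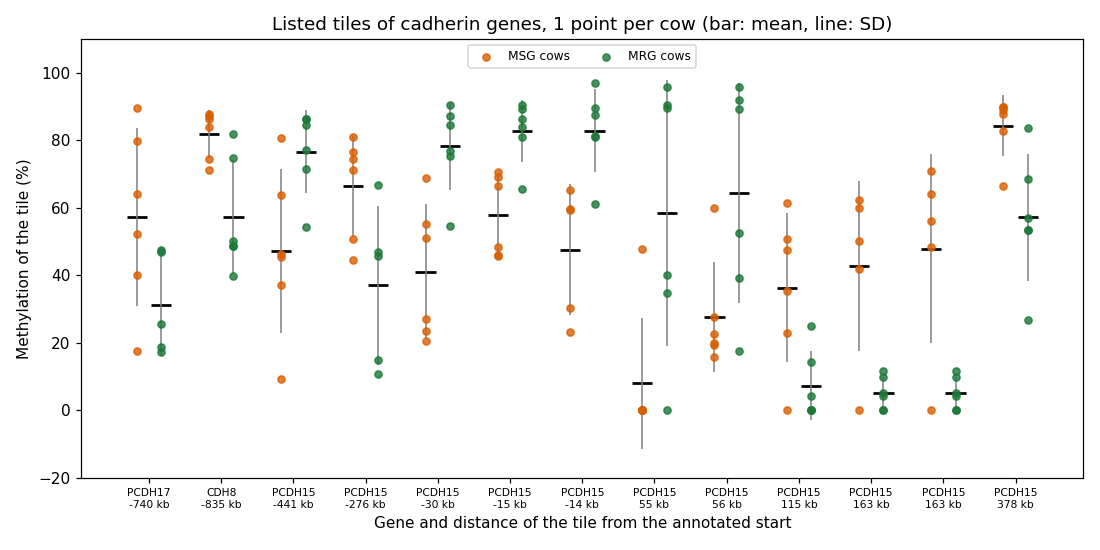
Percent methylation (vertical axis) of the 13 listed tiles of PCDH17, CDH8 and PCDH15, 1 point per cow, MSG left and MRG right of each tick, with the mean as a bar and the SD as a line. Tiles are labelled by gene and distance from its annotated start. The groups' points overlap in every tile, and in the PCDH15 tile 55 kb after the start 5 of 6 MSG cows lie at 0.

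Neighbouring sites share reads and are not separate measurements, so listed sites up to 1000 bases apart were joined into runs of at least 3 sites and averaged per cow. PCDH15 had 37 such runs, PCDH17 had 15, CDH17 had 6, CDH20 had 3, and CDH8 and PCDH8 had 2 each. The runs with the most sites per gene and those without overlap were named by rule. Other runs, tiles other than the widest of a gene, and single sites more than 1 kb from a start were picked for description after their values were seen. The PCDH15 run with the most sites, 12 (4380487 to 4383419, 276 kb before the start), stood at 74.0, 45.3, 68.8, 44.1, 69.4 and 70.2% in MSG and at 40.3, 36.7, 7.14, 67.2, 6.49 and 6.41% in MRG. Its difference of 34.6 points did not pass (limma adjusted p = 0.0506), although it did without MSG replicate 4 (adjusted p = 0.0489) or MRG replicate 4 (adjusted p = 0.0360), and reached 0.0774 with another cow left out. In a run of 3 sites 191 kb before the start (4466318 to 4466541) the cows did not overlap, with 39.6, 50.8, 0, 50.2, 79.5 and 44.3% in MSG and 85.7, 84.8, 82.2, 89.4, 82.1 and 88.9% in MRG. That run passed (difference -41.5 points, adjusted p = 0.0460) but did not without MSG replicate 1, 2, 3 or 6 (adjusted p = 0.0541, 0.0577, 0.0506 and 0.0502) or MRG replicate 5 (0.0501).

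The same cows recurred as the low ones from run to run. In 4 PCDH15 runs with 23 sites over 51.8 kb (4592421 to 4644259), upstream of the start, MSG replicates 1, 3 and 6 were at 5% or less while the other MSG cows ranged from 27.7% to 97.0% and all MRG cows from 25% to 90.7%. A run between them (4595167 to 4595943) went the other way, at 69.8% ± 24.8 over the MSG cows and 20.9% ± 32.2 over the MRG cows. In 6 of the 9 intronic runs from 4769778 to 4822491, with 32 sites over 52.7 kb, MSG replicates 4 and 5 and all 6 MRG cows were at 5% or less. The other 4 MSG cows ranged from 21.8% to 94.3% there. In 3 runs 453 to 444 kb before the start (4203943 to 4213951), MSG replicate 4 and all MRG cows but replicate 4 were at 5% or less.

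Some neighbouring PCDH15 runs mirrored each other. In the run of 6 sites 444 kb before the start (4212758 to 4213951), the MSG cows stood at 53.0, 46.7, 84.1, 0, 41.6 and 47.6% and the MRG cows at 0, 0, 0, 43.9, 0 and 0%. The next run, of 7 sites (4215540 to 4216487), had 47.0, 49.0, 0, 87.7, 53.3 and 24.5% in MSG against 85.4, 91.2, 96.4, 53.8, 87.9 and 83.1% in MRG. MSG replicate 3 was the highest cow of the first run and the lowest of the second, and the cows at 0 in the first stood above 80% in the second. A like pair lay 378 and 383 kb after the start, where MRG replicate 1 was at 0 in a run higher in MSG (5035175 to 5035870) and at 87.0% in a run lower in MSG (5040773 to 5041236).

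**Figure D4:**
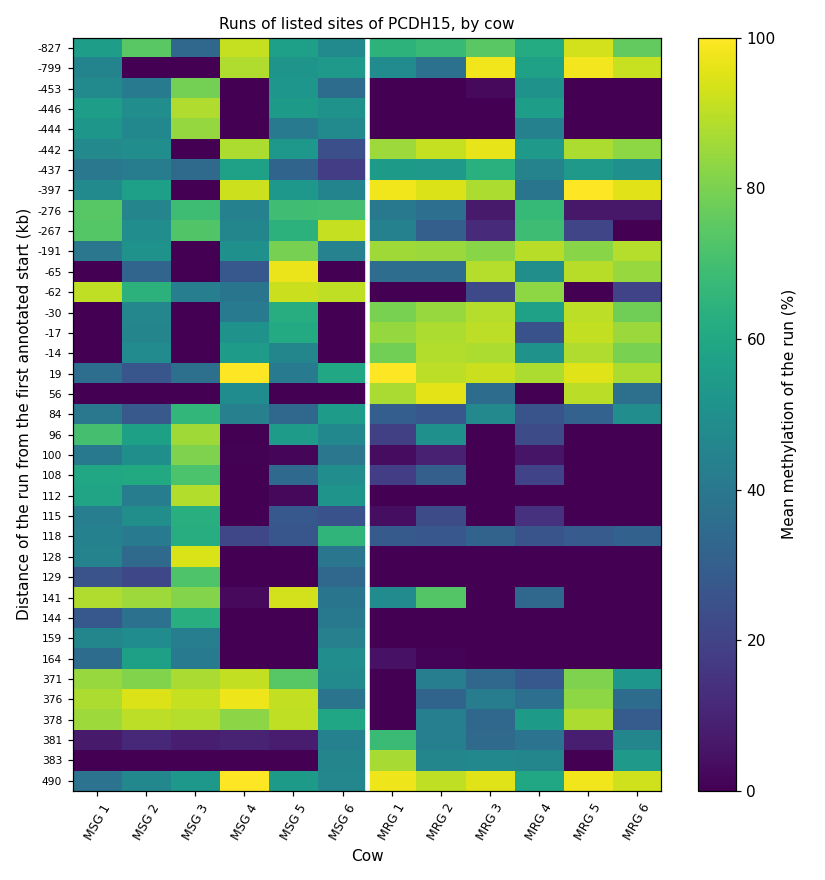
Mean methylation (colour, percent) of the 37 PCDH15 runs of at least 3 listed sites (rows, by distance from the first annotated start in kb) in the 6 MSG cows (left of the white line) and the 6 MRG cows (right). In 6 of the runs from 112 kb to 164 kb, 4 MSG cows lie well above 0 and the other 8 cows at 5% or less, and the runs from 65 kb to 14 kb before the start with a negative difference show MSG replicates 1, 3 and 6 at 0.

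Close to a PCDH15 start, a CpG 0.755 kb upstream was listed on both strands. On the forward strand (position 4656848) the MSG cows stood at 0, 47.4, 0, 43.8, 0 and 0% and the MRG cows at 94.1, 85.7, 93.3, 0, 81.2 and 88.9%. On the reverse strand (4656849) the values were 0, 47.1, 0, 58.3, 0 and 0% in MSG and 82.4, 100, 75, 0, 90.9 and 83.3% in MRG. Both strands thus had 4 MSG cows and MRG replicate 4 at 0. The forward difference was -58.7 points, and limma's adjusted p over all sites was 0.0781. Exonic sites numbered 4, of which 3 were in PCDH15 and 1 in CDH5, the cadherin of vessel endothelium, at 74.8% ± 40.2 in MSG and 37.2% ± 38.4 in 5 MRG cows. A CpG of an exon (5080665 and 5080666, exon 6 of a transcript of 31 exons) was lower in MSG on both strands, at 41.3% ± 29.7 and 44.1% ± 29.4 in MSG and at 85.4% ± 11.9 and 84.3% ± 9.07 in MRG. The exonic site 5029430 was higher in MSG, at 81.7% ± 10.5 against 46.4% ± 35.4 in MRG (n = 5).

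CDH23, which encodes the cadherin paired with protocadherin-15 in tip links, had 10 sites on chromosome 28, all intronic, 3 higher and 7 lower in MSG. It had no tile and no run, and a cow was at 0 at 7 of the 10.

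Among delta-2 protocadherins, PCDH17 had 146 sites, 145 of them distal and up to 1349 kb from the nearest annotated start (chromosome 12, 5106603 to 5221533). PCDH17 is known as an adhesion protein of developing brain circuits. Its 85 higher sites averaged 53.1% ± 21.0 in MSG and 19.6% ± 16.2 in MRG, and its 61 lower sites 23.7% ± 13.7 in MSG and 55.6% ± 7.42 in MRG. The directions again lay in blocks. In 4 of 5 runs, with 17 sites (5865375 to 5899392), MSG replicate 3 stood at 31.2% to 43.0% and the other 5 MSG cows at 5% or less, while MRG replicate 2 was also at 5% or less and the other 5 MRG cows stood at 33.3% to 63.6%. In 7 of 8 runs, with 32 sites over 36.1 kb (5956330 to 5992385), MSG replicate 5 and MRG replicates 3, 4, 5 and 6 were at 5% or less. There the other MSG cows ranged from 21.5% to 91.7%, and MRG replicates 1 and 2 from 14.7% to 50.6%.

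The single PCDH17 tile (5962001 to 5962500, 740 kb from the start) lay in that second block. It stood at 79.8, 52.2, 63.9, 40, 17.6 and 89.5% in MSG and at 47.4, 46.9, 25.5, 17.3 and 18.6% in the 5 MRG cows with a value. The difference of 26.0 points did not pass limma's test (adjusted p = 0.0588), and with a cow left out its adjusted p was 0.0312 to 0.137, passing only without MSG replicate 5. The run with the most sites, 8 (5988087 to 5990407), stood at 82.4, 56.7, 42.1, 54.0, 19.8 and 88.7% in MSG and at 51.4, 42.9, 5.05, 6.35, 7.05 and 10.6% in MRG. No cow's mean over the run was 0. At every site of the run except 5990244 and 5990245, however, MSG replicate 5 and MRG replicates 3, 4, 5 and 6 were at exactly 0. The run's limma adjusted p was 0.0524, and 0.0422 to 0.0840 with a cow left out, passing only without MSG replicate 5.

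PCDH8, another delta-2 gene on chromosome 12, had 19 of 20 sites lower in MSG, all distal. Its run of 11 sites 68.8 kb from the start (10839248 to 10842459) stood at 0, 47.3, 92.7, 55.5, 94.2 and 52.0% in MSG and at 95.1, 94.4, 96.9, 96.8, 96.9 and 95.7% in MRG. MRG cows were all above every MSG cow, by a narrow margin over MSG replicates 3 and 5. The difference was -39.0 points, the SD was 34.7 in MSG and 1.04 in MRG, and the limma adjusted p was 0.0511, and 0.0422 to 0.0737 with a cow left out, passing only without MSG replicate 5. PCDH18 and PCDH19 had 1 higher and 1 lower site each.

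CDH17, the liver-intestine cadherin, had 48 of 50 sites lower in MSG (chromosome 14). A cow was at exactly 0 at all 50 sites. Its lower sites averaged 35.2% ± 24.0 in MSG and 72.5% ± 32.7 in MRG. In 5 of its 6 runs (24 sites over 49.4 kb, 70204466 to 70253860) MSG replicates 2 and 6 and MRG replicate 3 were at 5% or less. The run with the most sites, 7 (70251822 to 70253860), stood at 35.1, 0, 41.1, 46.6, 37.0 and 0% in MSG and at 90.9, 91.2, 0, 87.0, 93.7 and 47.2% in MRG. It did not pass (difference -41.7 points, limma adjusted p = 0.0575), and the range with a cow left out was 0.0450 to 0.0955, passing only without MRG replicate 3. Its site nearest to a start, 0.746 kb inside the gene (70105101), averaged 64.7% ± 37.6 over the MSG cows and 88.9% ± 19.3 over the MRG cows.

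Among type II cadherins, CDH20 and CDH19 had nearly all sites on one side. CDH20 had 20 of 22 sites higher in MSG, 19 of the 22 within introns (chromosome 24). Its run of 5 sites 69.6 kb from the start (59956492 to 59957492) stood at 95.1, 95, 92.5, 94.3, 92.9 and 95.7% in MSG and at 38.3, 94.8, 90.6, 91.8, 0 and 59.2% in MRG. MSG cows lay within a few points of each other. MRG replicate 2 stood among them and the other 5 MRG cows below all of them, replicates 3 and 4 by a small margin. The difference was 31.8 points (limma adjusted p = 0.0755). MRG replicate 5 was at 0 in all 3 CDH20 runs.

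CDH8, a type II cadherin of the brain, had 25 of 39 sites higher in MSG, with 38 of them distal. Its tile (chromosome 18, 30597001 to 30597500, 835 kb from the start) stood at 71.2, 87.7, 74.5, 83.8, 86.3 and 87.2% in MSG and at 48.6, 81.7, 74.6, 48.6, 39.7 and 50% in MRG. MRG replicates 2 and 3 lay among the MSG cows. The difference was 24.6 points (limma adjusted p = 0.0365). The call was lost without MSG replicate 2, 3 or 6 (adjusted p = 0.0566, 0.0505 and 0.0568), without MRG replicate 1, 5 or 6 (0.0574, 0.0627 and 0.0525) and by the exact permutation test (0.0524). Its largest run, of 4 sites 327 kb from the start (30089208 to 30089269), had 0, 93.9, 88.1, 0, 52.5 and 48.8% in MSG and 0, 0, 0, 0, 37.5 and 43.6% in MRG. Cows at 0 were present in both groups (adjusted p = 0.0906).

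CDH11, the osteoblast cadherin, had 11 higher and 12 lower sites and no run, and held 4 sites at which the groups' cows did not overlap. A site 2.92 kb before a start (chromosome 18, 32775903) stood at 0, 14.3, 0, 0, 0 and 30.8% in MSG and at 40, 45.5, 55.6, 84.6 and 38.5% in 5 MRG cows. The CpG 1.70 kb inside the gene was higher in MSG on both strands, at 86.1% ± 15.6 and 89.9% ± 12.95 in MSG and at 45.3% ± 32.3 and 51.0% ± 30.5 in MRG. Opposite directions were therefore listed within the promoter class of a single gene.

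The remaining larger genes had scattered sites and no run. CDH7 had 5 higher and 9 lower sites in MSG, and CDH19 had 10 higher and 1 lower, all outside the gene models, on chromosome 24. CDH12, a cadherin of the brain, had 4 higher and 8 lower sites, and at its site 0.993 kb before the start (chromosome 20, 51048224) the 5 MSG cows with a value were at 0, against 0, 0, 0, 71.4 and 36.4% in 5 MRG cows. CDH13, the membrane-anchored T-cadherin without a cytoplasmic tail, had 11 higher and 5 lower sites, 14 of them intronic. CDH4, the retinal cadherin, had 14 of its 15 sites beyond the gene.

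Genes with fewer sites were CDH6 (2 higher, 5 lower), PCDH11X (1 higher, 6 lower), PCDH20 (1 higher, 6 lower), PCDHB1 (4 higher) and 8 genes with 1 or 2 sites. In CDH6 the groups' cows did not overlap at 2 intronic sites of opposite direction. The site 42291777 stood at 67.4% ± 12.1 in MSG and 34.1% ± 4.02 in MRG, and the site 42285909 at 2.57% ± 4.14 in MSG and 30.7% ± 16.4 in MRG (n = 5). PCDH11X, an X-linked protocadherin, had no site with a cow at 0. Its site 849 kb from the start (40692084) averaged 97.1% ± 3.31 over the MSG cows and 70.2% ± 11.6 over the MRG cows, without overlap. An intronic site of PCDH7 (chromosome 6, 50183716) stood at 66.1% ± 11.1 in MSG and 30.1% ± 9.71 in MRG, also without overlap.

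**Figure D5:**
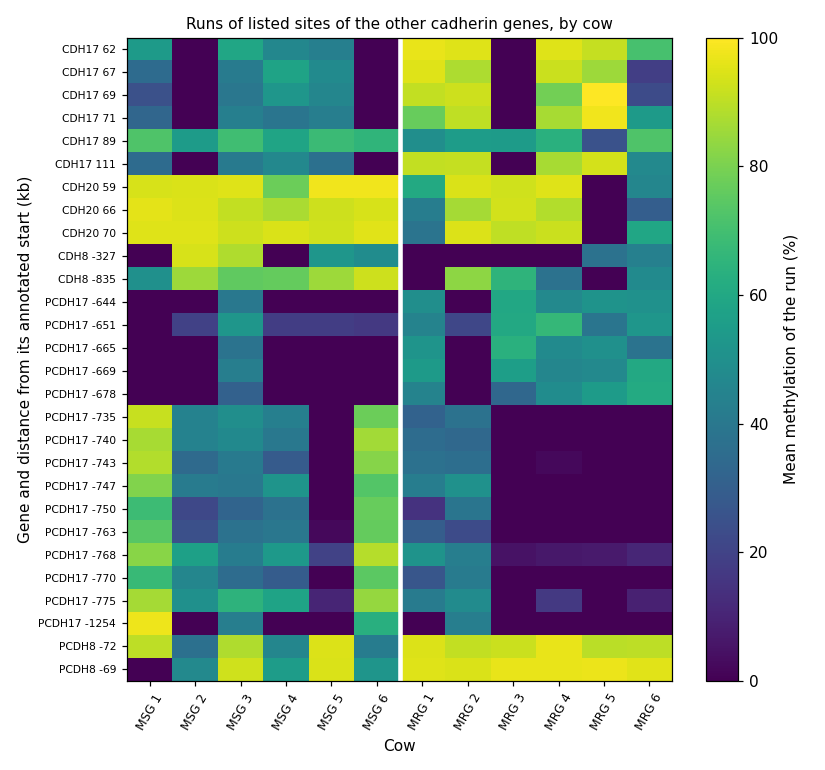
Mean methylation (colour, percent) of the 28 runs of at least 3 listed sites of CDH17, CDH20, CDH8, PCDH17 and PCDH8 (rows, with the distance from the gene's annotated start in kb) in the 6 MSG cows (left of the white line) and the 6 MRG cows (right). Rows of one gene repeat a pattern of cows: MSG replicates 2 and 6 and MRG replicate 3 at 0 in 5 of 6 CDH17 runs, and MRG replicate 5 at 0 in all 3 CDH20 runs.

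Rows with fully separated cows were few in the family, as they were among all listed rows. At 28 of the 803 sites (3.49%) the groups' cows did not overlap, 10 higher and 18 lower in MSG, against 2.36% of all listed sites (1.39% higher in MSG). Of these 28 sites, 15 were of PCDH15 and the others came from 9 genes. The widest of them was a PCDH15 site 14.03 kb before the start (4643575), at 0, 42.9, 0, 50, 52.6 and 0% in MSG and at 100, 94.4, 100, 100 and 92.9% in 5 MRG cows, a difference of -73.2 points. Runs without overlap numbered 2 of 65, both lower in MSG, against 3.26% of all runs (1.98% higher in MSG). For tiles the count was 0 of 13, against 6.03% of all tiles (3.67% higher in MSG).

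Among the tests, limma called 12 of the 13 tiles at an adjusted p under 0.05, 6 higher and 6 lower in MSG. Of all 1227 listed tiles 73.3% were called, 41.6% higher and 31.6% lower, and with 11 of the 13 tiles in 1 gene the family's count rests mainly on PCDH15. The count was 7, 5 and 7 without MSG replicate 1, 3 or 6, and 6 without MRG replicate 1 or 5. Calls over all 1227 tiles fell as well, from 899 to 469, 397 and 488 without these MSG cows. Without MRG replicate 1 or 5 they fell to 447 and 449. The exact permutation test, adjusted over all tiles, called 3, all upstream of PCDH15, and those starting at 4642751 and 4643001 overlap. Its share over all tiles is not given here, so the 3 cannot be set against it. Of the 65 runs limma called 10, 3 higher and 7 lower in MSG, 8 of PCDH15 and 2 of PCDH17, against 12.4% of all 15906 runs (6.91% higher and 5.44% lower). That count was 0 without MSG replicate 1 or 2, 6 without MSG replicate 3, 26 and 20 without MSG replicate 4 or 5, 3 without MRG replicate 1, 17 without MRG replicate 4 and 6 without MRG replicate 5 or 6. Calls over all 15906 runs moved too, from 1965 to 56, 0, 1044, 2732 and 2072 without MSG replicate 1, 2, 3, 4 or 5. They were 1388, 2879, 1028 and 2409 without MRG replicate 1, 4, 5 or 6. The exact test called 0 runs, where 55 had an unadjusted limma p under 0.05, against 61.1% of all runs. For single sites limma called 0 of 803 and 0% of all listed sites. At an unadjusted p under 0.05 there were 446 of the family's sites, 228 higher and 218 lower in MSG, against 51.9% of all listed sites. Among sites with no cow at 0, tested on their own, 106 of 131 passed, 57 higher and 49 lower in MSG, against 73.1% of all such sites.

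Low values made up a larger share in the runs of PCDH15 and PCDH17 than in all runs, a difference that was not tested. Of 780 run means (65 runs, 12 cows), 30.1% were at 10% methylation or less, 32.2% between 35% and 65%, and 21.4% at 80% or more. Over all 15906 runs these shares were 17.5%, 36.2% and 27.9%. In MSG 24.4% of the family's run means were at 10% or less and in MRG 35.9%. A cow with a run mean of exactly 0 was present in 54 of the 65 runs (83.1%), against 60.3% of all runs. Of the family's 614 CpGs, 189 were listed on both strands (30.8%, against 28.1% of all CpGs). The strands had the same direction in all 189, and within a cow they differed by a median of 4.46 points.

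Catenins and the cadherin superfamily genes outside the family as defined here held fewer listed sites than its 803. Without PCDH15 and PCDH17 the family itself held 270 sites. Of the catenins, the proteins that tie classical cadherins to actin, 5 of 7 genes had 87 sites, 62 higher and 25 lower in MSG, and 52 of the sites were of CTNNB1, the beta-catenin gene (35 higher, 17 lower). CTNNA3 had 25 of 28 sites higher in MSG. Of 24 other cadherin superfamily genes, 15 had 202 sites, 130 higher and 72 lower, led by CELSR1 (57 higher, 16 lower) and FAT4 (5 higher, 30 lower). Neither list had a tile. Limma's test called 0% of all listed sites, so that no site of either list passed says nothing about these genes.

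Depth per value was not known here, and the spread among the cows of a group is the error given. The label blood could not be checked against markers, since the tables hold no expression. Over all listed sites the cows' means ranged from 53.9% to 55.1% in MSG and from 51.8% to 54.0% in MRG, and over the family's 803 sites from 44.5% to 49.6% in MSG and from 40.8% to 50.5% in MRG. Of 23 blood cell marker genes 8 had a listed site, in all 238 sites, 135 higher and 103 lower in MSG, and their directions differed between genes. GYPC, which encodes a red cell membrane protein, had 70 sites higher and 92 lower, and held all 8 marker tiles, of which 1 was higher in MSG. Most sites of the white cell markers were higher in MSG, with 25 of 26 for the monocyte marker CD163, 14 of 18 for the T cell marker CD3E, 11 of 14 for the NK cell marker NCR1 and 9 of 10 for the neutrophil marker MPO. CD5 had 4 of 5, CD79B 1 of 2 and MS4A1 1 of 1. The part of blood cell composition in the cadherin values was not tested.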

How the data were processed

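Whole-blood DNA of 12 cows (6 MSG, 6 MRG) was sequenced after enzymatic conversion, per the labels. The submitters' processing notes name fastp 0.23.1, Bismark, DRAGEN and ChIPseeker 1.32.1, without roles, and the build ARS-UCD1.2. The test behind the selection is not given in the sources used here. Values deposited by the authors were percent methylation for each cow, their difference score in percentage points, and their p-value and q-value (at most 0.01 for sites), per the file headers. Each row had been selected at 25 points or more. Another 36 columns, of counts per tile, carried numbers, not cow names, and were not used, so depth is unknown and the planned test on read counts was replaced by limma on percent values.

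Rows were taken by gene symbol. The members, lists and tests were chosen with earlier results of these data known. Runs joined listed sites up to 1000 bases apart, at least 3 sites, and a cow needed values at a share of 0.5 of them. MSG was tested against MRG with limma 3.58.1 (R 4.3.3), two-sided, no covariate, Benjamini-Hochberg over all rows of the tile, run or site table, threshold 0.05. Cows without a value at a row were dropped there. The alternative was an exact permutation test over 924 regroupings (smallest p for 6 against 6, 0.00216). P-values set the difference between the groups against the spread between these cows. As the rows had been selected on the same cows, they cannot be taken at face value. The code was tested on simulated data. Mean absolute differences between 2 cows over all sites were 25.0 to 44.5 points, so no sample was a copy of another. Named genes were those with a tile, the 12 with the most sites and those with sites within 1 kb of a start (up to 10), each with its widest tile and its run with the most sites, plus tiles and runs without overlap; other items were chosen after their values were seen. Numbers of cows follow record order and pair no cows. No sequence was read, since no genome of this build was used here.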

Additional observations from a re-analysis of the deposited data

Results flagged for a closer look

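In 6 of 47 groups of cows checked at named tiles, named runs and sites near a start, 1 cow stood apart from the others by Dixon's criterion. Its rate of about 1 in 20 by chance holds for independent, normally distributed values, and these percentages are bounded and often 0. The flags include a pair of overlapping tiles and both strands of 1 CpG. The count therefore cannot show an excess. In MSG, replicate 4 was at 47.6% in the PCDH15 tile 55.4 kb after the start while the other 5 MSG cows were at 0 (gap over range 1), and in the overlapping tile it was at 59.8% against 15.8% to 27.6% (0.733). MSG replicate 6 was at 66.5% in the PCDH15 tile 378 kb after the start, against 82.8% to 89.8% (0.701). In MRG, replicate 3 was at 50% at the CDH17 site 0.746 kb inside the gene, against 94.1% to 100% (0.882). MRG replicate 4 was at 0 on both strands of the PCDH15 CpG 0.755 kb before the start, against 81.2% to 94.1% on the forward strand (0.863) and 75% to 100% on the reverse strand (0.75).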

How the results depend on the processing

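The 12 tiles called became 2 (of 2) at 40 points or more, 0 at a threshold of 0.01, 3 by the exact permutation test, and 5 to 12 with a cow left out. Calls over all 1227 tiles were 397 to 797 with a cow left out, against 899 with all cows. The 10 of 65 runs called became 0 on the logit scale, 5 in rows with all 12 cows and 0 at a threshold of 0.01. The exact permutation test called 0 (lowest adjusted p 0.0680). Among runs with no cow's mean at exactly 0, 4 of 11 were called, against 2116 of all 6320 such runs. With gaps up to 200 bases 17 of 36 were called, against 2416 of all 7863. For runs of 5 or more sites it was 19 of 25, against 1938 of all 5337. At a threshold of 0.06, chosen after seeing the data, 40 were called. With a cow left out the count was 0 to 26. The 0 sites called became 167 of 167 at 40 points or more and stayed at 0 with any cow left out. With no cow at exactly 0 they became 106 of 131, against 73.1% of all such sites. The setting of 40 points or more keeps rows by the same difference that is then tested, so passing there is no support. Sites higher in MSG made up 51.3%, 39.5% at 40 points or more, 49.6% with no cow at 0, 57.5% inside the gene and 47.6% with 1 vote per gene. The share was 48.6% without PCDH15 and 43.3% without PCDH15 and PCDH17, the last pair chosen after seeing the data. With 1 vote per group of neighbouring sites, of any number of sites, it was 49.4% (216 of 437). Of the 65 runs of at least 3 sites, 38 were higher in MSG (58.5%), against 52.4% of all runs. For tiles the share was 53.8%, and 44.4% with no cow at 0. No named tile or run changed direction in any setting. Rows had been selected for a difference between these same cows, so this is no support for the directions. Of the 12 called tiles, 5 of PCDH15 (4627251, 4643001, 4712751, 4820001 and 4820251) passed whichever cow was left out, and the others reached adjusted p of 0.0554 to 0.0823. No paired analysis was possible because replicate numbers only follow record order. The number of cows and the unknown depth limit precision, and for each change named here the cause was not tested.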
